A study of Mus musculus with 18 samples.

Results

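Glycogen is made and broken down by a small set of enzymes. UGP2 makes UDP-glucose, glycogen synthase (*Gys1* encodes the form found outside liver) adds its glucose to the chain, and the branching enzyme GBE1 starts the side branches. Glycogen phosphorylase, with brain (*Pygb*), liver (*Pygl*) and muscle (*Pygm*) forms, removes glucose units from the chain. The PPP1R3 proteins are glycogen-targeting subunits that hold protein phosphatase 1 (PP1) on the glycogen particle, where it activates glycogen synthase and inactivates phosphorylase. In the retina, Müller glia are known for their glycogen store, and several genes of this pathway are known targets of the hypoxia-inducible factor HIF1 in other cells. The RNA levels of 10 such genes of 78239 in the count tables were examined: *Gys1*, *Gbe1*, *Ugp2*, the 5 targeting subunits *Ppp1r3b*, *Ppp1r3c*, *Ppp1r3d*, *Ppp1r3e* and *Ppp1r3g*, and the phosphorylases *Pygb* and *Pygl*. They were chosen by function with earlier results of both comparisons below known, so their changes with *nsHif1a* are given as a description, without a test.

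The series held 10 retinal libraries and 8 libraries from 661W cells. The retinas came from wild-type mice, named C57BL/6J in the labels and 129S6 in the study's methods, which were injected subretinally between postnatal days 29 and 32 with an AAV vector and sampled 3 weeks later. The vector carried either *nsHif1a*, a mouse *Hif1a* altered so that its protein is stable and active in normoxia (AAV::*nsHif1a*, 5 mice), or eGFP (AAV::eGFP, 5 mice). Both transgenes were driven by the rod-specific mouse opsin promoter, so the transgene was directed to rods while the RNA came from the whole retina. The study reports that the vectors reached only a part of the retinal area. The cells, a mouse retinoblastoma-derived line described as photoreceptor-like, were transfected with a plasmid for Myc-tagged *nsHif1a* or for eGFP under the CMV promoter and harvested after 20 h (4 libraries each). They are 1 cell line, and nothing in the labels says that the 4 libraries of a group came from separate cultures, so spreads between them may be technical.

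Total counts ranged from 12898220 to 16167522 in the retinal libraries and from 13424326 to 17809585 in the cell libraries. The level of *Hif1a* separated the groups in cells, where it averaged 157 ± 6.79 CPM (SD, n = 4) with eGFP and 1561 ± 384 CPM with *nsHif1a*. CPM is a gene's count scaled to a fixed library total. In retina the control and treated libraries overlapped, at 638 to 698 and 642 to 729 CPM. In the cells, the summed level of 10 rod markers was at most 18.2 CPM with eGFP, against 47555 to 53158 CPM in the control retinas, so the defining rod transcripts were close to absent from the line. Among the retinal libraries, AAV::eGFP libraries 3, 4 and 5 held 1 to 3 counts of *Xist*, the transcript of the inactive X chromosome, and the other 7 held 19492 to 28595. The *Xist* class was thus uneven between the vectors, with 5 AAV::*nsHif1a* but only 2 AAV::eGFP libraries in the class with *Xist*. Differences between the vectors in retina can therefore include differences between these classes. Lens γ-crystallins took 0.0634% to 0.280% of the counts in controls and 0.0956% to 1.82% in treated retinas.

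The genes lie apart in the genome (GRCm39). *Gys1* is at chr7:45084175-45106058 on the plus strand, *Gbe1* at chr16:70110715-70366609 on the plus strand and *Ugp2* at chr11:21270384-21321276 on the minus strand. The targeting subunits are at chr8:35842874-35856680 on the plus strand (*Ppp1r3b*), chr19:36708523-36714070 on the minus strand (*Ppp1r3c*), chr2:178052999-178056265 on the minus strand (*Ppp1r3d*), chr14:55110126-55115009 on the minus strand (*Ppp1r3e*) and chr13:36142822-36154371 on the plus strand (*Ppp1r3g*). *Pygb* is at chr2:150628628-150673685 on the plus strand and *Pygl* at chr12:70237585-70278262 on the minus strand.

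The promoters of *Gys1*, *Ppp1r3b*, *Ppp1r3c* and *Ppp1r3g* are shown because the RNA of these 4 genes was higher with *nsHif1a* in retina with no overlap between the groups, as was that of *Gbe1*, whose window held no match. No share of all genes without overlap stands beside this, so it is a reason for display and nothing is read from it. HIF1 is known to bind the core letters ACGTG or GCGTG. Each window is the 250 bases before the start of the canonical transcript (gencode M39 on GRCm39), printed 5′ to 3′ along the gene, with each match on either strand in capitals:
Gys1, chr7:45083996-45084245, plus strand: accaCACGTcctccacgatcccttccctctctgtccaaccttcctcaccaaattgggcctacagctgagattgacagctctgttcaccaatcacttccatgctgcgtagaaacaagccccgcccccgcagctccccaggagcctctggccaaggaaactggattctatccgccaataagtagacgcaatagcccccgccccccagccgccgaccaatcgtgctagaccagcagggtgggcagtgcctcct
Ppp1r3b, chr8:35842624-35842873, plus strand: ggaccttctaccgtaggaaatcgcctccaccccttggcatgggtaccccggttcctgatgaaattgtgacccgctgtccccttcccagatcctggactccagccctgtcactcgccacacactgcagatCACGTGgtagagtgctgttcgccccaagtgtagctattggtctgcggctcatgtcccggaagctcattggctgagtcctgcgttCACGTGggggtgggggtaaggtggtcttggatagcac
Ppp1r3c, chr19:36714071-36714320, minus strand: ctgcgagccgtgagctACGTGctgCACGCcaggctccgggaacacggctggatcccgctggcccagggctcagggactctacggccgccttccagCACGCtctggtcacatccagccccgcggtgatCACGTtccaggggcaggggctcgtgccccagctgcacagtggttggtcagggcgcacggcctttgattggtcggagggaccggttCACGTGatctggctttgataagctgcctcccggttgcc
Ppp1r3g, chr13:36151586-36151835, plus strand: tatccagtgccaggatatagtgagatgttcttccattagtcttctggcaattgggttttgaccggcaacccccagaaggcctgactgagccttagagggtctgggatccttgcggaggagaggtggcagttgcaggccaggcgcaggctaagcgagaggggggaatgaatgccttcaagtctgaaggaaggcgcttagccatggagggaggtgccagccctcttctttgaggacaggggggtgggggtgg
The *Ppp1r3c* window held 5 separate matches, the nearest beginning 38 bases before the start. The *Ppp1r3b* window held 2, beginning 121 and 37 bases before the start, and both were the palindrome CACGTG, in which ACGTG reads on both strands. The *Gys1* window held 1 match, 246 bases before the start, and the *Ppp1r3g* window held none. The *Ppp1r3g* window lies inside the gene, whose annotated start is chr13:36142822, so the bases before that start were not searched. The *Gys1* window runs past the annotated gene start at chr7:45084175. Of the windows not printed, that of *Pygb* also runs past its annotated gene start, and those of *Ugp2* and *Pygl* lie inside their genes. *Pygb*, *Ugp2* and *Pygl* are counted among the genes with a match. Among all 10 genes 8 had a match, in a setting where 41.33% of 21723 protein-coding promoters of that length held one (16.99% held ACGTG and 31.18% held GCGTG). The palindrome was in the windows of 3 of the 10 genes (*Ppp1r3b*, *Ppp1r3c* and *Ppp1r3d*) and in 6.27% of all windows. A match is a property of the letters alone, and binding was not measured.

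In retina, the gene that differed most between the vectors was *Ppp1r3g*, a targeting subunit known from liver. Its level was 0.306, 0.711, 0.743, 0.396 and 0.527 CPM in AAV::eGFP libraries 1 to 5, from 4 to 12 counts each. In AAV::*nsHif1a* libraries 1 to 5 it was 3.22, 10.015, 6.10, 6.82 and 10.7 CPM, from 43 to 167 counts. The lowest treated library thus stood well above the highest control, and the means were 0.536 ± 0.191 and 7.37 ± 3.05 CPM (SD, n = 5 each), a ratio of 13.75. The fitted log2 fold change (log2FC) was 3.74 (SE 0.53, 95% limits 2.58 to 4.89).

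*Ppp1r3b*, the subunit best known from liver, was also higher. Its level was 3.44, 4.39, 4.27, 4.36 and 4.14 CPM with AAV::eGFP and 4.95, 9.57, 8.51, 9.82 and 10.3 CPM with AAV::*nsHif1a*. The groups did not overlap, although AAV::*nsHif1a* library 1 lay close to the controls. The log2FC was 1.05 (SE 0.19, 95% limits 0.65 to 1.46). *Ppp1r3c*, which encodes the subunit PTG (protein targeting to glycogen), was the most abundant targeting subunit of the control retina and moved little. It stood at 20.6, 22.7, 22.03, 24.05 and 21.7 CPM in the controls and at 26.6, 27.7, 27.2, 28.8 and 26.7 CPM in the treated retinas, again without overlap. Its log2FC of 0.31 (SE 0.05, 95% limits 0.19 to 0.42) lay below the fold threshold of 0.5 used for calls.

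The remaining targeting subunits overlapped between the vectors. *Ppp1r3d* ranged from 3.77 to 6.10 CPM in controls and from 3.85 to 5.29 CPM in treated retinas (log2FC -0.10, 95% limits -0.44 to 0.25). *Ppp1r3e* ranged from 1.88 to 3.52 CPM and from 1.99 to 2.66 CPM (log2FC -0.16, 95% limits -0.58 to 0.25).

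Of the enzymes, *Gys1* differed most. It was 15.1, 15.8, 16.8, 17.05 and 16.9 CPM in AAV::eGFP libraries 1 to 5 and 28.9, 36.8, 29.1, 31.9 and 45.7 CPM in AAV::*nsHif1a* libraries 1 to 5. Every treated retina exceeded every control, with means of 16.3 ± 0.842 and 34.5 ± 7.06 CPM and a log2FC of 1.04 (SE 0.12, 95% limits 0.79 to 1.29). *Gbe1* was 47.4, 48.7, 46.8, 40.6 and 43.4 CPM in controls and 50.2, 56.8, 55.7, 54.1 and 67.5 CPM in treated retinas. This was a smaller shift, also without overlap, with a log2FC of 0.32 (SE 0.07, 95% limits 0.17 to 0.48). *Ugp2* ranged from 36.5 to 45.4 CPM and from 39.7 to 48.7 CPM, and its groups overlapped (log2FC 0.08, 95% limits -0.08 to 0.24).

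The phosphorylases, which act in the opposite direction on glycogen, did not share this shift. *Pygb* ranged from 88.6 to 103 CPM with AAV::eGFP and from 88.4 to 94.9 CPM with AAV::*nsHif1a* (log2FC -0.08, 95% limits -0.18 to 0.02). *Pygl* ranged from 26.6 to 35.5 CPM and from 21.95 to 32.2 CPM (log2FC -0.15, 95% limits -0.38 to 0.08). The groups of both genes overlapped, and the limits of both contained 0.

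**Figure D1:**
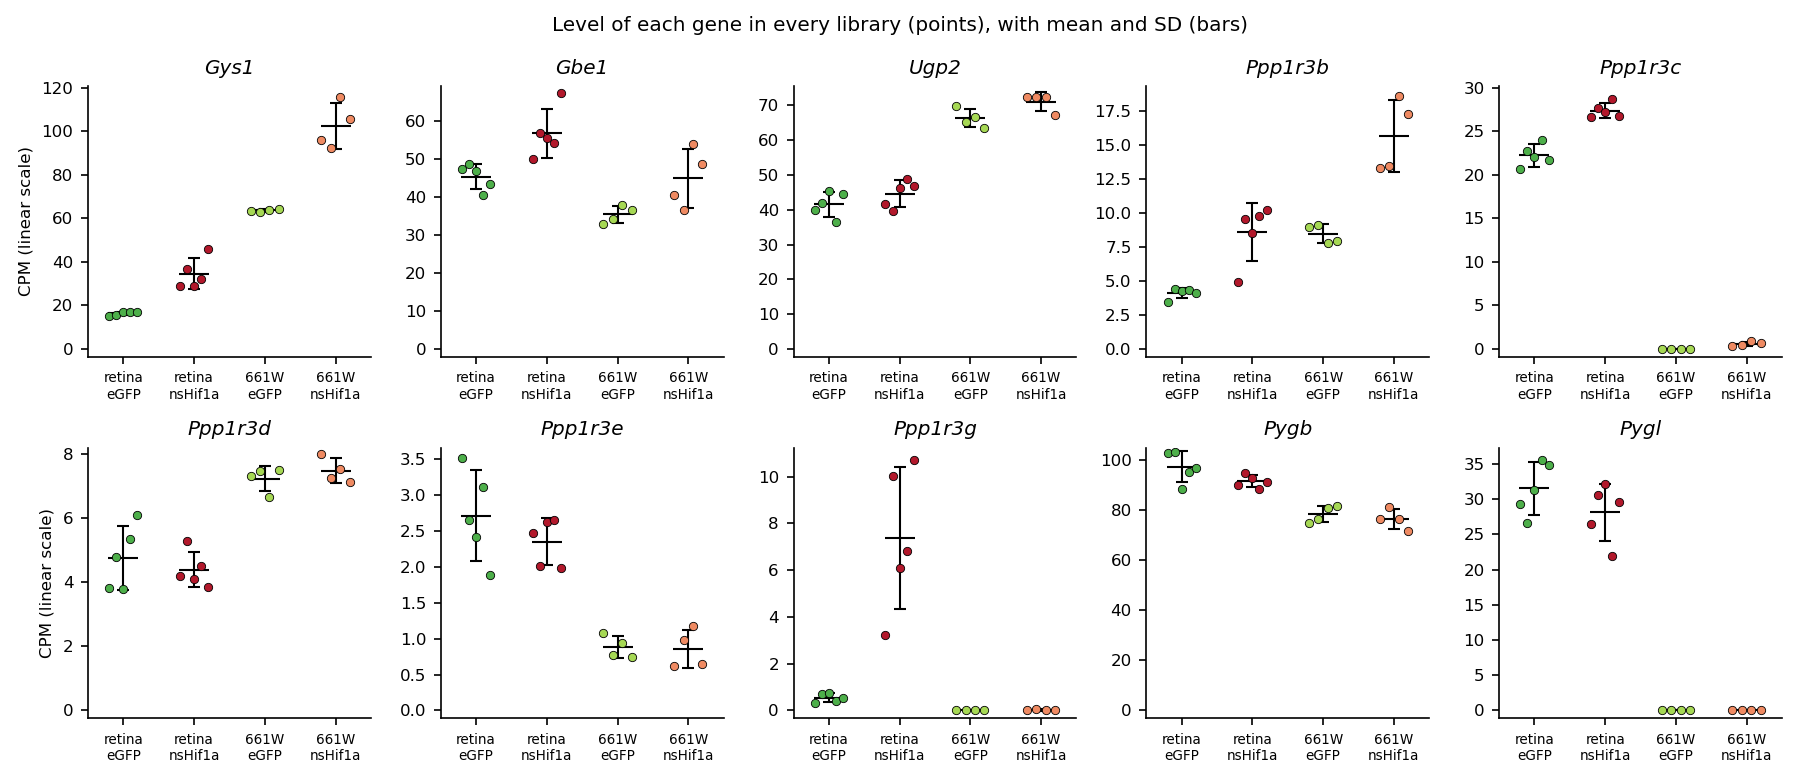
CPM on a linear axis from 0 for each of the 10 genes, with 1 point per library, ordered by replicate number within a group, and bars for the mean and SD of the group. *Ppp1r3g* lies at 0.306 to 0.743 CPM in control retinas and at 3.22 to 10.7 CPM in AAV::*nsHif1a* retinas, whereas in 661W cells it is at or next to 0, and *Gys1* and *Ppp1r3b* separate the groups in both systems.

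At an adjusted p under 0.05 (limma, Benjamini-Hochberg over all genes) and an absolute log2FC above 0.5, 3 of the 10 genes were called higher in retina (*Gys1*, *Ppp1r3b* and *Ppp1r3g*) and 0 lower. Over all 18859 genes tested, 1.08% were called higher and 0.912% lower (203 and 172 genes). Among all genes 313 and 215 were called without AAV::eGFP library 2, the lower calls fell to between 82 and 101 without AAV::eGFP library 4 or 5 or AAV::*nsHif1a* library 2 or 3, and the calls of the 3 genes were kept in each case. Because the genes were chosen with this contrast known, nothing is read from the count. *Ppp1r3g* passed the filter on low counts only through the AAV::*nsHif1a* libraries, with 43 to 167 counts against 4 to 12 in controls. Its call is therefore part of the description and no independent support. By adjusted p alone 5 genes passed, with *Gbe1* and *Ppp1r3c* added. No share of all genes stands beside this number, so nothing is read from it either. *Gbe1* no longer passed with the *Xist* class as a covariate, in the *Xist* libraries alone, with library totals as the scaling, or without AAV::eGFP library 4 or 5 or AAV::*nsHif1a* library 2, and *Ppp1r3c* did not in the *Xist* libraries alone. The median log2FC of the 10 genes was 0.192, beside -0.00209 over all genes tested.

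The treated retinas were ordered alike for several of these genes. AAV::*nsHif1a* library 1 was the lowest of its group for *Gys1*, *Gbe1*, *Ppp1r3b*, *Ppp1r3c* and *Ppp1r3g*, and library 5 was the highest for all of these but *Ppp1r3c*. Libraries 2 and 5, highest for *Gys1*, *Gbe1* and *Ppp1r3g*, also had the smallest γ-crystallin shares of the treated group (0.130% and 0.0956%, against 1.06% to 1.82% in the other 3). With the γ-crystallin level as a covariate, the log2FC was 1.24 for *Gys1*, 1.19 for *Ppp1r3b* and 4.24 for *Ppp1r3g*. Among the 7 retinal libraries with *Xist* counts, which leave 2 controls, the log2FC was 1.12, 1.12 and 3.79. The sizes were thus kept, while the calls of *Ppp1r3b* and *Ppp1r3g* were lost. Among all genes 64 were called higher and 76 lower in this fit. Why the calls were lost was not tested.

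Markers of retinal cell types were set beside these values. No gene of the 7 marker lists was called in retina. The summed level of the 8 Müller glia markers, the retinal cells best known for glycogen, was 4679 to 4904 CPM with AAV::eGFP and 4110 to 4845 CPM with AAV::*nsHif1a*. That of the 10 rod markers was 47555 to 53158 CPM and 37312 to 49265 CPM, with a median log2FC of -0.229. Microglia and macrophage markers had a median log2FC of 1.09, with sums of 24.3 to 120 CPM and 44.0 to 119 CPM that overlapped, and lens markers one of 2.43, with sums of 634 to 2817 CPM and 920 to 18956 CPM. The part of these shifts in the glycogen genes was not tested, and in whole retina fewer cells of a type and less RNA per cell cannot be told apart.

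In 661W cells, *Ppp1r3b* had the largest log2FC of the 3 targeting subunits that passed the filter on low counts. Its level was 9.01, 9.14, 7.82 and 7.96 CPM in eGFP libraries 1 to 4 and 13.3, 13.5, 18.6 and 17.3 CPM in *nsHif1a* libraries 1 to 4. The groups did not overlap, and the log2FC was 0.86 (SE 0.13, 95% limits 0.58 to 1.15). *Ppp1r3c* had no count in any eGFP library and 7, 7, 15 and 11 counts in the *nsHif1a* libraries, or 0.394, 0.492, 0.877 and 0.652 CPM. It was therefore seen only with *nsHif1a* among these cell libraries, at a level at least 12.5-fold higher than the 3 counts that the summed eGFP libraries could have held unseen, and it was too low for the filter before testing. The 40 counts in all have an exact Poisson interval of 28.6 to 54.5, which covers counting error only.

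*Ppp1r3g*, which differed most in retina, was practically silent in the line. It had no count in the 4 eGFP libraries and 1 count in the *nsHif1a* libraries together, so no change can be measured. For the eGFP group 3 counts would be 0.0482 CPM. *Ppp1r3d*, a broadly expressed subunit, was 6.65 to 7.51 CPM with eGFP and 7.11 to 7.99 CPM with *nsHif1a* (log2FC 0.05, 95% limits -0.16 to 0.26). *Ppp1r3e* was 0.751 to 1.08 CPM and 0.619 to 1.17 CPM (log2FC -0.12, 95% limits -0.73 to 0.50). Neither gene separated the groups, and *Ppp1r3e* rested on 10 to 20 counts per library.

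*Gys1* was higher in every *nsHif1a* cell library than in every eGFP cell library. It was 63.3, 62.9, 63.8 and 64.3 CPM with eGFP and 95.9, 92.1, 116 and 106 CPM with *nsHif1a*, with a log2FC of 0.67 (SE 0.06, 95% limits 0.53 to 0.81). *Gbe1* was 33.0, 34.4, 37.8 and 36.6 CPM and 40.5, 36.6, 54.0 and 48.7 CPM, with a log2FC of 0.31 (SE 0.11, 95% limits 0.07 to 0.56). *Gbe1* overlapped between the groups through *nsHif1a* library 2 and was not called, but it passed both thresholds without *nsHif1a* library 1 (log2FC 0.50) or without library 2 (0.51). *Ugp2* was 63.6 to 69.7 CPM and 67.1 to 72.5 CPM, and *Pygb* 74.8 to 81.6 CPM and 71.8 to 81.3 CPM. Both overlapped between the groups, with log2FC values of 0.10 (95% limits -0.01 to 0.21) and -0.04 (-0.15 to 0.08). *Pygl* had no count in any of the 8 cell libraries.

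The *nsHif1a* cell libraries differed among themselves in *Hif1a* and in some of the glycogen genes. *Hif1a* was 1222 and 1242 CPM in *nsHif1a* libraries 1 and 2 and 1954 and 1825 CPM in libraries 3 and 4. *Gys1*, *Gbe1*, *Ppp1r3b* and *Ppp1r3c* were each higher in libraries 3 and 4 than in both others. Within replicates 1 and 2 the log2 difference between the transfections was 0.57 for *Gys1*, 0.19 for *Gbe1* and 0.56 for *Ppp1r3b*, and within replicates 3 and 4 it was 0.79, 0.46 and 1.17. Other glycogen genes, described below, did not share this. In the same order of replicates, *Stbd1* had 0.73 and 0.66, *Epm2a* 2.72 and 2.24, and *Pgm1* 0.45 and 0.49. With 4 libraries a group, no relation between the levels was tested.

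Of the 10 genes, 7 passed the filter in cells, and 2 of these (*Gys1* and *Ppp1r3b*) were called higher and 0 lower. Over all 15962 genes tested in cells, 1.21% were called higher and 0.0626% lower (193 and 10 genes). This background depended on single libraries: 1201 higher and 677 lower genes were called without *nsHif1a* library 3, 1194 and 682 without *nsHif1a* library 4, 82 and 2 without eGFP library 1, and 87 and 2 without eGFP library 2. Lower calls numbered 16 to 21 without eGFP library 3 or *nsHif1a* library 1 or 2. Blocking on the replicate number gave 105 and 2. *Gys1* and *Ppp1r3b* were called in each of these fits. As in retina, the genes were chosen with these values known. The median log2FC of the 7 was 0.099, beside -0.00133 over all genes tested.

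**Figure D2:**
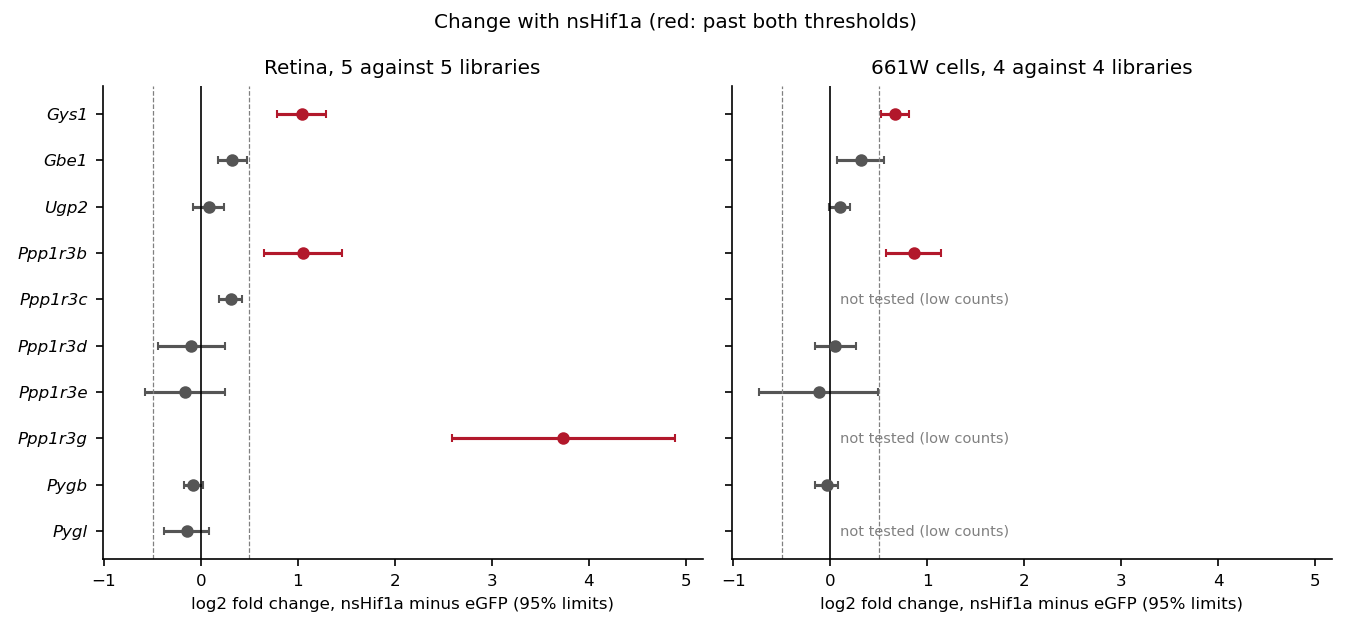
Log2 fold change of *nsHif1a* against eGFP for the 10 genes in retina (left) and 661W cells (right) on the same axis, with points for the estimates and bars for 95% limits; dashed lines mark the fold threshold of 0.5 in either direction and red marks genes past both thresholds. *Gys1* and *Ppp1r3b* are red in both panels, *Ppp1r3g* (3.74) in retina alone, and *Ppp1r3c*, *Ppp1r3g* and *Pygl* were too low in cells to be tested.

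Which targeting subunit moved was then compared between the systems, as the difference of the effects (retina minus cells) in a model of all 18 libraries. The share of cells reached, the promoter and the time differed with the system. These differences therefore compare changes in the RNA of whole samples and not responses per cell that carried the transgene. For *Ppp1r3b* the difference was 0.15 on the log2 scale, with 95% limits of -0.35 to 0.64, so a similar or a moderately different change are both within the limits. For *Ppp1r3d* it was -0.14 (-0.54 to 0.26) and for *Ppp1r3e* -0.06 (-0.79 to 0.67). *Gys1* differed by 0.34 (0.04 to 0.63), *Gbe1* by -0.04 (-0.32 to 0.23), *Ugp2* by -0.01 (-0.21 to 0.19) and *Pygb* by -0.03 (-0.17 to 0.11). For *Ppp1r3c* and *Ppp1r3g* the fitted differences, -4.001 and 3.495, rest on a cell control group without a count. They therefore depend on the small offset that voom adds to every count and carry no size. *Pygl*, with no count in any cell library, has no change in cells to compare. By the adjusted p under 0.05 that 2.33% of all 20999 genes passed in this comparison, 1 of the 10 genes passed, *Ppp1r3c*. The count became 2 when any 1 of 7 libraries was left out: *Ppp1r3g* joined without AAV::*nsHif1a* library 1, 2 or 5 or cell *nsHif1a* library 1 or 2, and *Gys1* joined without cell *nsHif1a* library 3 or 4. The background moved more. Past both thresholds, 88 genes had a larger and 172 a smaller effect in retina among all genes, against 682 and 936 without cell *nsHif1a* library 3 and 689 and 927 without library 4. The numbers were 143 and 188 without AAV::eGFP library 2, 40 and 100 without AAV::eGFP library 4, 61 and 111 without AAV::*nsHif1a* library 3, and 113 and 263 with the cell replicates as a block.

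The subunits were next compared with each other by level per kilobase of exon (CPM per kilobase), including the 2 family members outside the 10 genes, *Ppp1r3a* (the muscle form) and *Ppp1r3f*. The counts of *Ppp1r3f* are uncertain, since 48.6% of its 50-base words also occur in *Gm36995*, which overlaps it on the same strand. In control retinas *Ppp1r3c* made up 57.1% ± 0.987 of the summed level (SD, n = 5), followed by *Ppp1r3d* (12.5% ± 2.31), *Ppp1r3f* (11.8% ± 1.06) and *Ppp1r3e* (10.7% ± 2.67). *Ppp1r3b* held 5.67% ± 0.398 and *Ppp1r3g* 1.83% ± 0.667. The control retina was thus mainly a *Ppp1r3c* tissue by RNA. With AAV::*nsHif1a* the summed level was 16.3 ± 1.47 CPM per kilobase instead of 11.6 ± 0.626, and *Ppp1r3g* held 17.5% ± 6.10 of it (9.09% to 24.4% in the 5 libraries), the second largest share. *Ppp1r3c* still held 50.5% ± 4.32 and *Ppp1r3b* 8.38% ± 1.59. With the length of the canonical transcript alone, *Ppp1r3c* again led in control retinas (52.3% ± 0.981) but *Ppp1r3f* came next (16.9% ± 1.46), above *Ppp1r3d* (11.5% ± 2.13).

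In the cells the make-up was another one. Control cells drew 53.0% ± 2.65 of the summed level from *Ppp1r3d* and 32.5% ± 1.75 from *Ppp1r3b* (SD, n = 4), with 0 for *Ppp1r3a*, *Ppp1r3c* and *Ppp1r3g*. With *nsHif1a* the share of *Ppp1r3b* was 44.0% ± 4.26 and that of *Ppp1r3d* 40.5% ± 4.40, while *Ppp1r3c* held 3.12% ± 0.814. The summed level was 4.18 ± 0.183 CPM per kilobase with eGFP and 5.68 ± 0.508 with *nsHif1a*. These shares follow from the changes described above and were not tested.

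**Figure D3:**
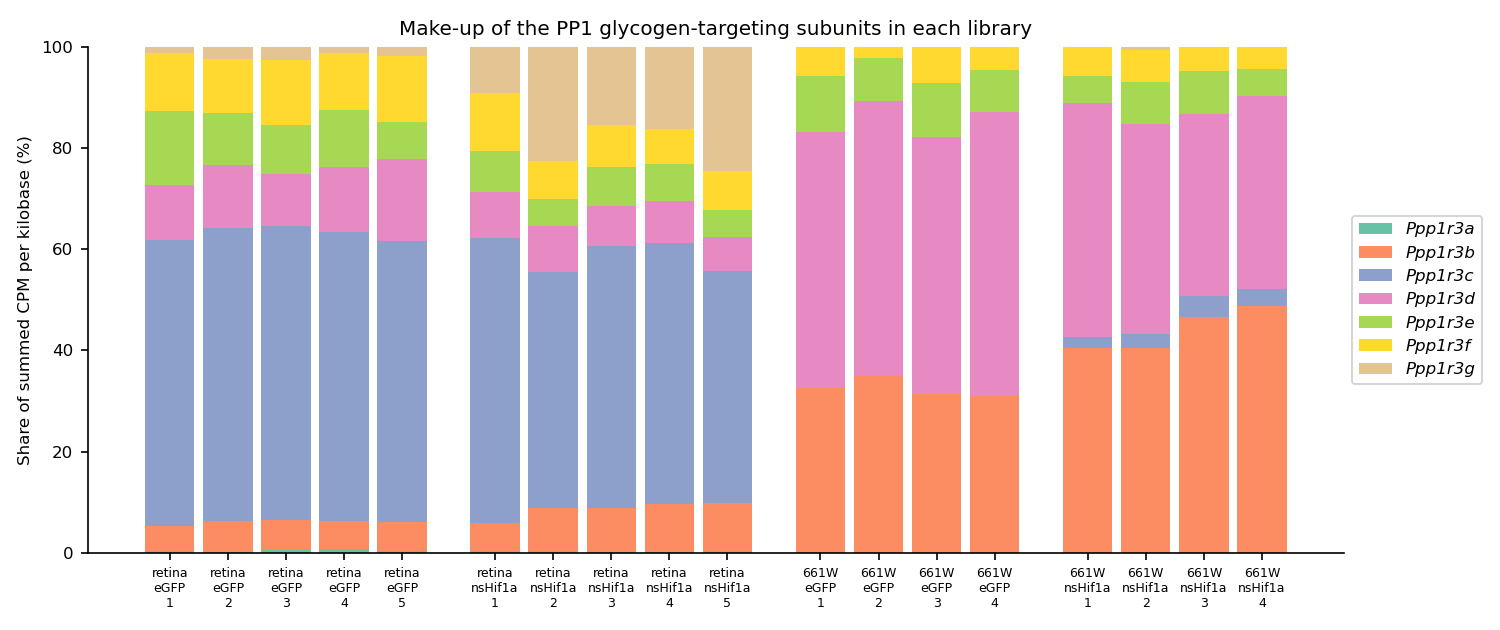
Share (%) of each of the 7 glycogen-targeting subunits in their summed CPM per kilobase, with 1 stacked bar per library for the 5 + 5 retinal and 4 + 4 cell libraries, numbered by replicate. *Ppp1r3c* fills 55.7% to 58.1% of each control retina, *Ppp1r3g* widens to between 9.09% and 24.4% with AAV::*nsHif1a*, and *Ppp1r3d* and *Ppp1r3b* fill most of each cell bar.

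Across all 10 genes, the control retina ranked *Pygb* first at 11.8 to 13.8 CPM per kilobase, followed by *Ugp2* (10.3 ± 0.890), *Gbe1* (10.2 ± 0.749) and *Pygl* (9.30 ± 1.11), of which neighbours overlapped between libraries. *Ppp1r3c*, *Gys1* (2.38 ± 0.122), *Ppp1r3d*, *Ppp1r3e*, *Ppp1r3b* and *Ppp1r3g* (0.213 ± 0.0758) followed in this order, and in it only *Ppp1r3d* and *Ppp1r3e* overlapped with each other. The muscle phosphorylase *Pygm*, outside the 10 genes, stood above all of them in control retinas at 25.6 ± 0.675 CPM per kilobase. It held 53.5% of the summed level of *Pygb*, *Pygl* and *Pygm* there. With AAV::*nsHif1a*, *Ppp1r3g* (2.93 ± 1.21) stood in the seventh place instead of the tenth, its range overlapping those of *Gys1* (5.02 ± 1.03) above and *Ppp1r3b* (1.38 ± 0.345) below. In control cells *Ugp2* led at 16.4 ± 0.641, then *Pygb* (10.5 ± 0.443), *Gys1* (9.25 ± 0.0877) and *Gbe1* (7.99 ± 0.490), with no overlap between neighbours down to *Ppp1r3e*. In *nsHif1a* cells *Gys1* (14.9 ± 1.54) stood in the second place behind *Ugp2* (17.6 ± 0.652), with overlapping ranges. The order depends on the length used. With the canonical transcript alone, *Gbe1* (14.6 ± 1.07) stood above *Ugp2* (11.05 ± 0.953) in control retinas without overlap. By that length *Pygb* led in control cells (19.96) and *Gys1* in *nsHif1a* cells (27.6), and *Pygl* was followed by *Gys1* and not by *Ppp1r3c* in treated retinas.

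The contrast of control retinas with control cells was not used in choosing the genes and was tested over all genes. The whole transcriptomes differ, and 81.3% of the 20999 genes tested were called in one direction or the other, so the 7 of 10 called here are no result about the glycogen genes. *Gys1* was lower in retina, with a log2 difference of -1.84 (SE 0.10, adjusted p = 2.32e-12 in limma). *Ppp1r3b* was lower too (-0.93, SE 0.18, adjusted p = 0.000104), as was *Ugp2* (-0.57, SE 0.06, adjusted p = 8.06e-08), while *Ppp1r3e* was higher (1.63, SE 0.22, adjusted p = 1.04e-06). *Gbe1* (0.46), *Pygb* (0.42) and *Ppp1r3d* (-0.48) stayed under the fold threshold. With RLE size factors in place of TMM, *Gbe1* (0.54) and *Pygb* (0.51) passed it and *Ugp2* (-0.48) did not, whereas all directions were kept. *Ppp1r3c*, *Pygl* and *Ppp1r3g* were without a count in control cells and at 22.4, 31.6 and 0.549 CPM over the summed control retinas. Measured against 3 counts in the summed cell libraries, these levels were at least 465-fold, 656-fold and 11.4-fold higher in retina. Tissue, culture and experiment cannot be told apart in this contrast.

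The other genes of glycogen metabolism were read from a list of 24, written with earlier results known, so their p-values are given as a description of the fit and support nothing further. In retina 21 of them were tested, with log2FC values from -0.23 to 0.42 and a median of 0.017. None of the 21 was called by limma, edgeR or DESeq2 (0 each). In limma 7 of them had an unadjusted p under 0.05, as had 9 of the 20 tested in cells. No share of all genes stands beside these numbers, so nothing is read from them. *Pgm1*, the phosphoglucomutase that links glucose-6-phosphate to UGP2, was 55.5 to 60.7 CPM with AAV::eGFP and 68.6 to 87.9 CPM with AAV::*nsHif1a*. Its groups did not overlap, and its log2FC of 0.42 (SE 0.07, adjusted p = 0.00357) was under the fold threshold. *Ppp1cc*, a catalytic subunit of PP1, was 203 to 228 CPM and 232 to 271 CPM (log2FC 0.28, SE 0.05, adjusted p = 0.00443), and 57.8% of its 50-base words also occur in *Ppp1ccb*, so that its counts are uncertain. *Ppp1ca* (0.08) and *Ppp1cb* (0.15), the other catalytic subunits, did not pass. The tested phosphorylase kinase subunits *Phka1*, *Phka2*, *Phkb* and *Phkg2* had log2FC values from -0.23 to 0.03, and the degrading enzymes *Pygm* (muscle phosphorylase) and *Gaa* (lysosomal glucosidase) values of 0.03 and -0.10. None of *Gyg1* (glycogenin, the primer of the chain), *Pgm2*, *Pgm2l1*, *Ppp1r3f*, the synthase kinases *Gsk3a* and *Gsk3b*, *Nhlrc1*, *Epm2aip1*, *Stbd1* or *Epm2a* passed, with values from -0.05 to 0.19. *Ppp1r3a*, *Gys2* (liver glycogen synthase) and *Phkg1* were too low to be tested.

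In cells 20 of the 24 were tested, with a median log2FC of 0.051, and 2 were called, both higher. Over all 15962 genes tested there, 1.21% were called higher and 0.0626% lower. The list was written with earlier results known, so nothing is read from the count. *Epm2a*, which encodes the glycogen phosphatase laforin, had 1, 3, 4 and 4 counts with eGFP and 25, 22, 25 and 34 counts with *nsHif1a*. At these low counts the levels were 0.0601 to 0.300 CPM and 1.41 to 2.01 CPM, with a log2FC of 2.96 (SE 0.38, adjusted p = 0.00588). *Stbd1*, which encodes a protein that binds glycogen through a starch-binding domain, was 17.5 to 19.4 CPM and 29.2 to 30.3 CPM (log2FC 0.69, SE 0.06, adjusted p = 0.000455). Both genes separated the groups. DESeq2 called *Stbd1* alone, since it gave no adjusted p for *Epm2a*. *Pgm1* was 82.0 to 90.0 CPM and 111 to 122 CPM and passed on adjusted p (0.00183) but not on fold, at a log2FC of 0.47 that reached 0.51 without eGFP library 2. The other 17 genes tested did not pass, with log2FC values from -0.30 (*Pgm2*) to 0.61 (*Ppp1r3f*, 95% limits -0.15 to 1.37). The 4 genes not tested were *Ppp1r3a*, *Gys2*, *Phkg1* and *Nhlrc1*.

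The same genes were then read in retina. There *Epm2a* was far more abundant, at 58.5 to 64.2 CPM with AAV::eGFP and 62.3 to 85.2 CPM with AAV::*nsHif1a* (log2FC 0.19, SE 0.06, adjusted p = 0.109). *Stbd1* was 3.16 to 4.13 CPM and 3.53 to 4.02 CPM there (log2FC 0.05, SE 0.12, adjusted p = 0.851). The effect in retina minus that in cells was -2.84 for *Epm2a* (SE 0.41, 95% limits -3.71 to -1.97) and -0.65 for *Stbd1* (SE 0.12, 95% limits -0.91 to -0.39), as a description, since both genes were listed with these contrasts known. In cells *Epm2a* passed the minimum count only through the *nsHif1a* libraries. For *Pgm1* the difference was -0.04, with 95% limits of -0.23 to 0.15.

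**Figure D4:**
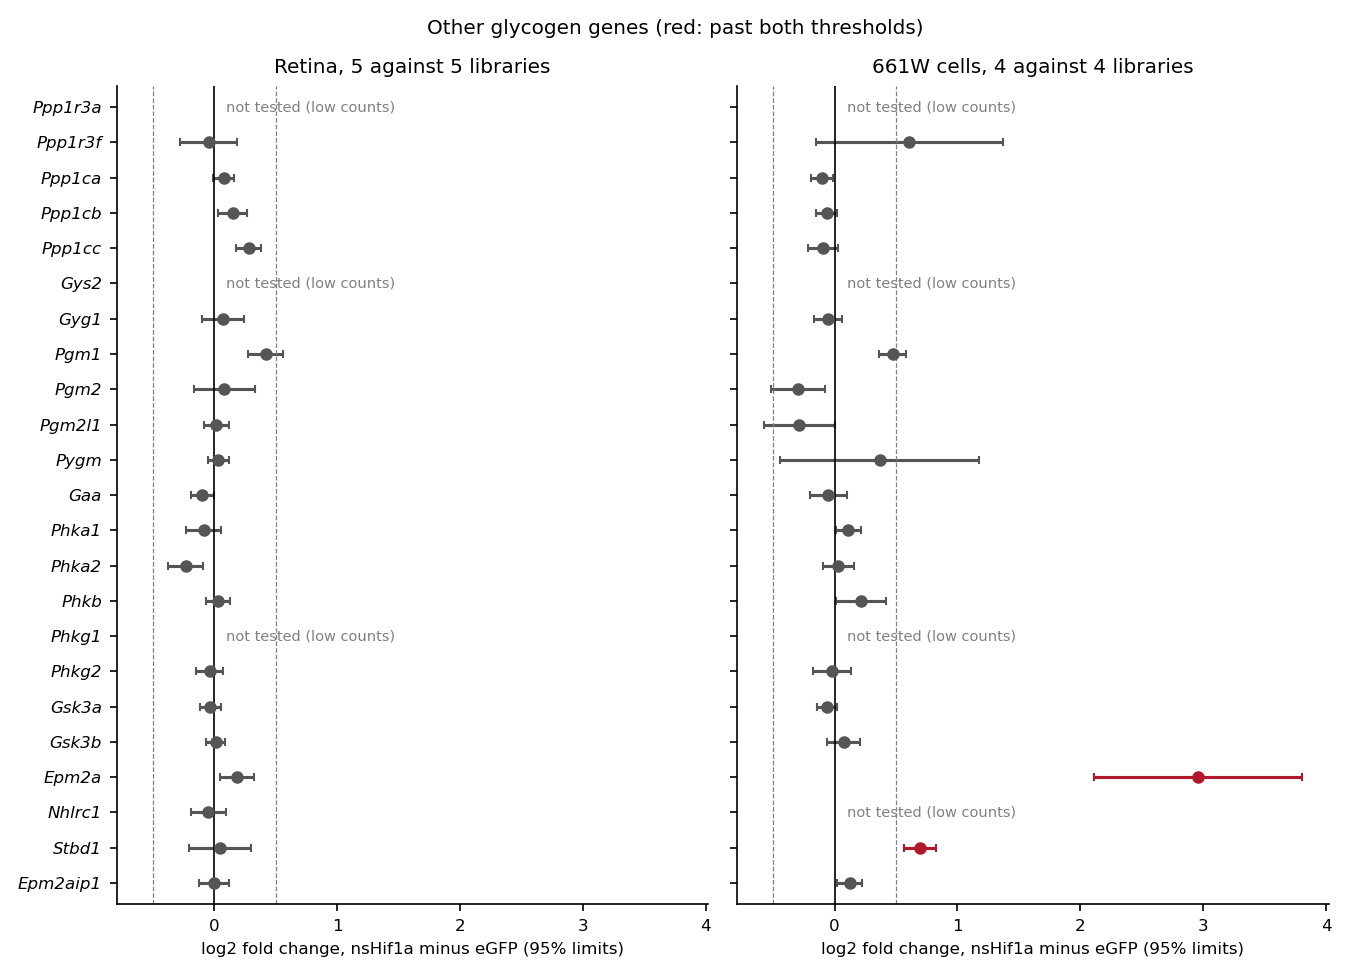
Log2 fold change of *nsHif1a* against eGFP for 23 other glycogen genes in retina (left) and 661W cells (right) on the same axis, with 95% limits; dashed lines mark the fold threshold of 0.5 and red marks genes past both thresholds. All points of the retina panel lie between -0.23 and 0.42, and *Epm2a* (2.96) and *Stbd1* (0.69) are the red points of the cell panel.

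The genes whose log2 CPM followed the leading subunit of each system most closely were looked up among all genes tested. In retina the 5 genes closest to *Ppp1r3g* over the 10 libraries were *Bnip3* (Pearson r = 0.994), a mitophagy receptor known as a HIF1 target, *Gm41608* (0.994), *Tbl2* (0.988), *Jmjd6* (0.988) and *Rnf145* (0.987). In cells the 5 closest to *Ppp1r3b* over the 8 libraries were *Smtnl2* (0.986), *Mxi1* (0.985), *Ak4* (0.984), an adenylate kinase of mitochondria, *Jmjd6* (0.983) and *Mgarp* (0.980). The libraries fall into 2 groups that differ in all of these genes, so such values are a description of that difference and of library order. *Jmjd6* was on both lists, with a log2FC of 0.72 in retina and 0.46 in cells.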

How the data were processed

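RNA was measured in 5 AAV::eGFP and 5 AAV::*nsHif1a* retinas and in 4 + 4 libraries of 661W cells, grouped by their labels. The authors sequenced stranded mRNA libraries from both ends, mapped the reads to the GRCm39 primary assembly with Rsubread and assigned them by strand to the genes of gencode M36 (basic set) with featureCounts. The deposited values are whole-number counts, without normalization, of which every column was used. Overlapping genes on opposite strands, such as *Ugp2* and *Vps54*, were thus separated, but counts of genes with near-identical copies are uncertain.

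Genes with low counts were removed with filterByExpr (minimum count 10) and library sizes scaled by TMM in edgeR 4.0.16, separately for retina and cells. Values from voomWithQualityWeights were fitted with limma 3.58.1 in R 4.3.3, after the study's methods, and genes were called at a Benjamini-Hochberg adjusted p under 0.05 and an absolute log2FC above 0.5. A model of all 18 libraries gave the differences between the systems and between their controls. CPM were scaled by TMM, with a prior count of 2 for log2 values, and divided by the merged exon length of gencode M39, which held 78168 of the 78239 genes. A count of 3 in 1 library was 0.169 to 0.229 CPM, which covers counting error only, and bounds against groups without a count used 3 counts over the group. The fits were tested on simulated counts.

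The 10 genes, the other glycogen genes and the markers were chosen with earlier results of these data known. Of the other glycogen genes, 1 is counted but not reported here. Genes named beyond these lists were the 5 with the highest correlation to the leading targeting subunit of each system. In cells, deviations of same-numbered libraries from their group means correlated at 0.227 to 0.269, although libraries 1 and 2 each correlated best with the other number. The main fits did not pair the libraries, and pairing by the replicate numbers of the labels was run as an alternative (the replicate block). As alternatives, DESeq2 1.42.0, the quasi-likelihood test of edgeR and an unweighted voom fit were run, with other scalings, filters and fold thresholds, the replicate block, *Xist* and γ-crystallin as covariates, and each library left out. The canonical transcript length, for levels and shares, was added after the data were seen.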

Additional observations from a re-analysis of the deposited data

Results flagged for a closer look

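Of 35 combinations of a gene and a group, 2 held a library that stood apart from the others by Dixon's criterion, which chance gives for about 1 in 20 groups. *Ugp2* was 67.1 CPM in *nsHif1a* cell library 4, against 72.3 to 72.5 CPM in the other 3. *Ppp1r3b* was 3.44 CPM in AAV::eGFP retina 1, below the 4.14 to 4.39 CPM of the other 4.

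The difference of the effects of *nsHif1a* (retina minus cells, log2) passed an adjusted p under 0.05 for 1 of the 10 genes and 3 of the other glycogen genes. These genes were chosen with both effects known, so the values are a description and no independent test. *Ppp1r3c* had -4.001, a fitted value that rests on control cells without a count. The gene was at 20.6 to 28.8 CPM in every retina and at 0.394 to 0.877 CPM in *nsHif1a* cells. *Epm2a* had -2.84 and *Stbd1* -0.65. *Ppp1cc* had 0.36, with the uncertainty of its shared sequence.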

How the results depend on the processing

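The calls of *Gys1* and *Ppp1r3b* in both systems and of *Ppp1r3g* in retina were kept under the alternatives apart from those named next. Among the *Xist* libraries alone, which leave 2 controls, 1 of the 10 genes was called in retina (*Gys1*). There *Ppp1r3b* (log2FC 1.12) and *Ppp1r3g* (3.79) no longer passed on adjusted p. By adjusted p alone 5 of the 10 were called in retina. At a log2FC threshold of 1 the count in cells was 0. Over the 21 alternatives with a value, the log2FC in retina was 0.96 to 1.24 for *Gys1*, 0.997 to 1.19 for *Ppp1r3b* and 3.53 to 4.24 for *Ppp1r3g*, and over 17 in cells it was 0.57 to 0.78 for *Gys1* and 0.68 to 1.05 for *Ppp1r3b*. With no filter on low counts the cells had 3 calls, *Ppp1r3c* being added.

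The other glycogen genes called in retina were 1 with the γ-crystallin covariate (*Pgm1*, log2FC 0.55) and 2 by adjusted p alone. Those in cells were 1 with DESeq2, with a minimum count of 30 (both *Stbd1*; the filter removes *Epm2a*) and at a threshold of 1 (*Epm2a*). With 1 library left out the counts were 3 to 3 for the 10 genes in retina and 2 to 3 in cells, 0 to 0 and 2 to 3 for the other glycogen genes, 1 to 2 for differing effects and 7 to 9 for differing baselines. The causes of these shifts were not tested where none is named.

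With the replicate block the calls were 3 in retina and 2 in cells, 0 and 2 for the other glycogen genes, 1 for differing effects and 7 for differing baselines, so the pairing changed none of these counts. The adjusted p of *Ppp1r3b* in cells (limma) was 0.0413 under the block and 0.011 without it. In retina, same-numbered libraries correlated at -0.148 to 0.138 and share only a number. There *Gbe1* no longer passed on adjusted p under the block. Of 210 single-gene values of the 10 genes in retina 208 kept their side of the thresholds, and of 118 in cells 116. No direction of a called value reversed. Depth limits *Ppp1r3g*, *Ppp1r3c* and *Pygl* in cells.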
